A study of Mus musculus with 6 samples.

Results

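The genes described here encode the chains of major histocompatibility complex (MHC) class I molecules and the factors that load them with peptide. They were taken as every probe set of the array whose platform annotation names B2m, H2-D1, H2-K1, H2-T23, H2-M3, Tapbp, Tapbpl, Nlrc5 or Cd1d1. All 9 genes, of 19324 named on the array, had at least 1 probe set. They have 28 of its 45037 probe sets (array controls left out). Of these, 23 carry the symbol of a single gene. The other 5 carry several symbols and are called cross-reading, since their signal cannot be assigned to a single gene.

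The arrays compare mouse colorectal tumour cells that were made to express the IRF2 open reading frame stably with the same cells expressing GFP from the same lentiviral plasmid type, pLenti6.3, with 3 arrays in each group. Both groups are the primary culture numbered 3346 of the iKAP model, so they share its alleles. As background from outside the labels, iKAP names a genetically engineered mouse model of colorectal cancer. The cells were grown in DMEM with 5% of an additive labelled Tetracycline-Free. The labels do not say how long the constructs had been expressed, whether the cells were cloned, or whether replicate arrays stand for separate dishes of cells. The p-values therefore measure array-to-array spread, which may be technical, and the results hold for 1 culture. The medians of the 6 arrays lay between 18.2 and 18.7 intensity units.

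The probe set of the labelled gene went against its label. Probe set 1418265_s_at, annotated to Irf2 and no other gene, read 62.6 ± 2.53 in the GFP control cells and 36.3 ± 0.934 in the others (SD, n = 3 each). No source used here says whether it can read the introduced open reading frame, so the second group is called "labelled IRF2" throughout. Markers of other cell types were counted in a fit with 1 probe set per gene, in which 16.5% of 12795 genes were higher and 19.8% lower. Of 12 immune cell markers, 11 had a probe set of their own, 6 of these were tested and only Cd14 was called (adjusted p = 0.035), a count that became 0 without the replicate 1 or 2 GFP control array or the replicate 2 or 3 array labelled IRF2. Their summed intensity was 294.7 to 331.6 in the GFP control cells and 326.1 to 337.4 in the cells labelled IRF2. The pan-leukocyte gene Ptprc read 4.48 ± 0.21 and 4.96 ± 0.522 (SD, n = 3 each), inside the span of 3.69 to 6.52 of the 3 tryptophan controls, which match no mouse transcript. Ptprc is among 5 immune markers under the intensity filter. The 6 tested lay above it. The brightest were Cd14, at 120 ± 8.8 and 137 ± 11.3, and Cd68, at 77.6 ± 6.85 and 77.9 ± 2.94 (SD, n = 3 each). Of 8 fibroblast markers 5 were tested. Pdgfra was higher, from 28.6 ± 4.35 to 46.4 ± 4.94, and Pdgfrb lower, from 56.7 ± 5.42 to 43.0 ± 3.69 (SD, n = 3 each), and the summed intensity of the list was 147.1 to 155.4 and 152.3 to 161.4. Of 6 endothelium markers, with sums of 97.29 to 107.8 and 90.47 to 102.0, 3 were tested and Egfl7 was lower (a count of 0 without the replicate 3 GFP control array or the replicate 1 or 2 array labelled IRF2). The part of these other cell types in the results below was not tested. Of 14 intestinal epithelium markers, 11 were tested, of which Krt8 and Krt18 were higher and Epcam, Cdh1 and Cdh17 lower in the cells labelled IRF2. Krt20, Cdx1 and Vil1 lay under the intensity filter in these cells. Cdx2 was measured above it, at 93.5 ± 3.52 and 86.0 ± 3.76 (SD, n = 3 each).

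MHC class I molecules sit on nearly all nucleated cells and show cytotoxic T cells short peptides cut from the cell's own proteins. Each consists of a polymorphic heavy chain and the invariant light chain beta-2 microglobulin. They assemble in the endoplasmic reticulum, where tapasin holds the empty molecule at the peptide transporter TAP and edits its peptide. Interferon raises the transcription of many of these genes through promoter elements that bind interferon regulatory factors, and NLRC5 is the transactivator that works through the neighbouring SXY module. IRF2 binds the same kind of element and is known both as a repressor and as an activator.

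The promoters of the members are shown because several of them hold elements of the kind that IRF2 binds. The RefSeq promoter table (GRCm38.p6) holds 6 of the 9 genes, and Tapbpl, Nlrc5 and Cd1d1 have no entry in it. The windows below are the 200 bases upstream of the annotated transcript start, 5′ to 3′ on the gene's own strand, with the first of 2 listed starts for H2-K1. Capitals mark exact matches to 5 motifs searched on both strands. Variants of their letters are not marked, so an unmarked window may still hold a related element. The first is a pair of GAAA half-sites 2 bases apart on the same strand, the core of an interferon-stimulated response element (ISRE). The second is the longest stretch that the upstream windows of H2-K1, H2-D1 and H2-M3 share, the 11 bases GTTTCACTTCT, which cover the ISRE known from class I genes. The third is GATTCCC, 7 bases of the NF-kappaB site of class I enhancer A. The others are the X2 box, TGACGC, and the Y box, CCAAT, of the SXY module. No marked match overlaps another in these windows.
B2m (chr2:122147487-122147686, plus strand): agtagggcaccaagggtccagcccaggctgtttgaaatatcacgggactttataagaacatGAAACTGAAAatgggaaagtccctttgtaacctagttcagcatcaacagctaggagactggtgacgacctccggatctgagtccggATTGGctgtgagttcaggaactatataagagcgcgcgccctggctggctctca
H2-K1 (chr17:34000348-34000547, minus strand): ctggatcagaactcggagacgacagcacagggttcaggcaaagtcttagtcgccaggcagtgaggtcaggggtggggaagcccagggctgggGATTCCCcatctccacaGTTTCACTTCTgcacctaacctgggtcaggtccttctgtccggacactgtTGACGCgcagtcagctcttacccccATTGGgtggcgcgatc
H2-D1 (chr17:35262894-35263093, plus strand): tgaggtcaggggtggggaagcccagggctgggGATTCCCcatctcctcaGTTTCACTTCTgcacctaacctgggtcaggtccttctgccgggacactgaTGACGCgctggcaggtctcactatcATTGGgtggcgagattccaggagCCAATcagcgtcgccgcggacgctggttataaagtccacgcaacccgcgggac
H2-M3 (chr17:37270034-37270233, plus strand): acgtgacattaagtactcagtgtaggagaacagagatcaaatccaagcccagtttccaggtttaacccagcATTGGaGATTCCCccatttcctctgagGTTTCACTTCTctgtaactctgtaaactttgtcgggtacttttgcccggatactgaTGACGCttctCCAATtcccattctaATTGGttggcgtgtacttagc
H2-T23 (chr17:36032702-36032901, minus strand): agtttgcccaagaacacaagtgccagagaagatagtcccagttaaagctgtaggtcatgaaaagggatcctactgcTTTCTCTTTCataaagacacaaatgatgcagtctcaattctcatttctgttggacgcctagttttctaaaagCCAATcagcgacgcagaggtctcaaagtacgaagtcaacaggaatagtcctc
Tapbp (chr17:33919278-33919477, plus strand): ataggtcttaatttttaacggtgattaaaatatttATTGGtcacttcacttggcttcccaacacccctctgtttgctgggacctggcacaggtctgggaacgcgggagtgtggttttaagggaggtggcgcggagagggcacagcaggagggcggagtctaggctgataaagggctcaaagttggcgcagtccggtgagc

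H2-K1, H2-D1 and H2-M3 each held the NF-kappaB letters, the shared ISRE stretch and an X2 box in this order. In H2-K1 and H2-D1 the spacing was the same, with 17 bases from the first base of the NF-kappaB letters to that of the ISRE stretch and 50 from there to that of the X2 box. In H2-M3 these steps were 21 and 56 bases. The longest stretch that H2-K1 and H2-D1 share is 47 bases and runs through the NF-kappaB letters. B2m held the pair of GAAA half-sites from position -139 to -130, counted from the transcript start, and a Y box. H2-T23 held the pair on its other strand from -124 to -115, and a Y box. Tapbp held Y boxes as its only matches. Over the 32851 promoter windows of 300 bases in the table, the GAAA pair was in 3.44%, the shared stretch in 0.0578%, the NF-kappaB letters in 3.36%, the X2 box in 7.4% and the Y box in 37.4%. The shared stretch was read from 3 of these promoters, so its presence in them is a description, and a match does not show that a factor was bound.

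**Figure D1:**
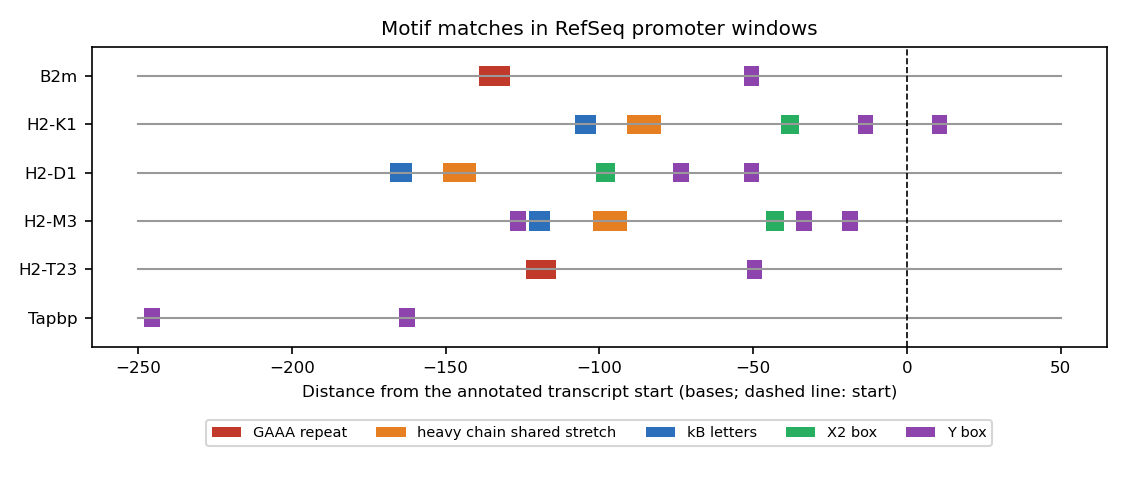
Motif matches along the RefSeq promoter windows of 6 members; the x axis is the distance from the annotated transcript start in bases, each row is a gene and each coloured block a match. H2-K1 and H2-D1 show NF-kappaB letters, ISRE stretch and X2 box 17 and 50 bases apart, and Tapbp shows Y boxes only.

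Most class I chain and loading probe sets were brighter in the cells labelled IRF2. Of the 28 probe sets, 21 lay above the intensity filter (a mean over all 6 arrays above the 40th percentile, 11.3 intensity units) and were tested. At a limma adjusted p under 0.05, 15 were higher, where 13.0% of all 27022 tested probe sets were higher, and 1 was lower, where 15.7% were lower. In either direction 16 were called, beside 28.7% of all tested. The groups did not overlap in 17 of the 21, beside 40.5% of all tested probe sets. Cd1d1 1449130_at, among the 15 and the 17, had a control mean of 11.2, under the filter. H2-D1 1427651_x_at, among the 21, had one of 10.7. Both passed only through the arrays labelled IRF2, so these counts rest in part on the filter. In the test without the filter, 16 of the 28 were higher and 1 lower, beside 7.49% and 8.80% of all 45037. The median log2 fold change, labelled IRF2 over GFP control, was 0.34 over the 21 and 0.29 over all 28, beside -0.0011 over all tested probe sets. The 15 that were higher came from B2m, H2-D1, H2-K1, H2-M3, Tapbpl and Cd1d1, and the 1 that was lower from Tapbp. In RNA from a whole culture, a different share of cells expressing a gene and a different amount of RNA per cell cannot be told apart.

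**Figure D2:**
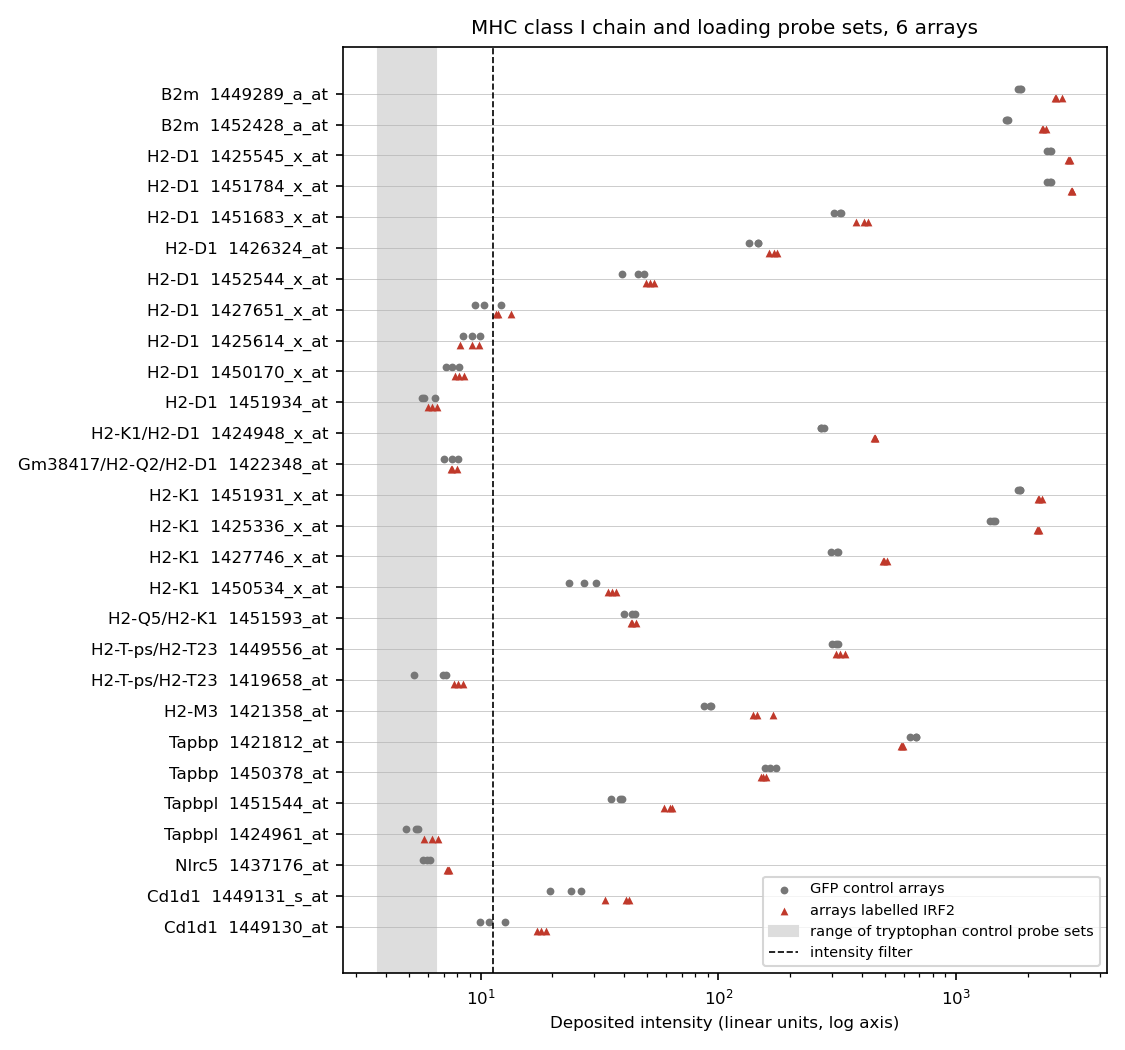
Deposited intensity (log axis) of the 28 probe sets on each array, with grey circles for the 3 GFP control arrays and red triangles for the 3 arrays labelled IRF2; the grey band spans the tryptophan controls (3.69 to 6.52) and the dashed line the intensity filter (11.3). The 2 B2m probe sets separate fully between the groups with controls between 1617 and 1866, and the Nlrc5 probe set lies close to the band.

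The light chain gene B2m rose on both of its probe sets by nearly the same amount. Probe set 1449289_a_at read 1819, 1866 and 1860 in the GFP control cells and 2607, 2637 and 2771 in the cells labelled IRF2. All 3 arrays labelled IRF2 were above all 3 controls, and the mean rose by 44.5% (log2 fold change 0.53, SE 0.02, adjusted p = 4.13e-09). Probe set 1452428_a_at went from 1633 ± 20.1 to 2330 ± 50.7 (SD, n = 3 each; 0.51, SE 0.02, adjusted p = 2.12e-09). Of all tested probe sets, 1.28% had a larger rise than the first of them. The within-array difference between the B2m probe sets moved by -0.02 between groups (exact two-sided permutation test, p = 0.6).

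The classical heavy chain gene H2-K1, whose product presents peptides to CD8 T cells, rose by amounts that differed between its probe sets. Probe set 1425336_x_at read 1452, 1381 and 1422 in the GFP control cells and 2174, 2208 and 2228 in the cells labelled IRF2 (log2 fold change 0.64, SE 0.02, adjusted p = 5.07e-10). Probe set 1427746_x_at read 318, 315 and 297 against 495, 492 and 511 (0.69, SE 0.03, adjusted p = 7.65e-09). The brightest, 1451931_x_at, rose less, with 1850, 1809 and 1846 against 2281, 2195 and 2218 (0.28, SE 0.02, adjusted p = 4.81e-07). None of the 3 overlapped between the groups. Relative to the brightest probe set within each array, the first gained 0.35 and the second 0.41 on the log2 scale. Both within-array differences separated the groups fully, with an exact two-sided permutation p of 0.1, the smallest that 3 arrays against 3 allow (0.229 adjusted over 16 such comparisons). The dimmer 1450534_x_at rose from 27.1 ± 3.5 to 35.8 ± 1.36 (SD, n = 3 each; 0.41, SE 0.09), or by 0.27 with 16 added to every intensity before the log. In the mean of the 4 probe sets named to H2-K1 alone, the change was 0.50, against 0.28 in the brightest.

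The other classical heavy chain gene with probe sets here, H2-D1, rose on 4 of the 6 tested probe sets named to it alone, by 0.25 to 0.34 on the log2 scale. Its brightest probe sets, 1451784_x_at and 1425545_x_at, gave log2 fold changes of 0.31 and 0.27 (SE 0.02 each). The first read 2509, 2398 and 2467 in the GFP control cells and 3072, 3056 and 3032 in the cells labelled IRF2, with no overlap (adjusted p = 1.26e-07). A further pair was called, 1451683_x_at at 0.34 (SE 0.04) and 1426324_at at 0.25 (SE 0.05). The latter is the only one of the 6 without the x suffix, with which the manufacturer marks probe sets that may hold probes shared with other sequences. It read 147, 135 and 147 against 176, 171 and 163. Probe set 1452544_x_at differed by 0.21 (SE 0.08) without passing the test (adjusted p = 0.0698), but passed without the replicate 2 GFP control array (adjusted p = 0.027; range over its alternatives 0.027 to 0.291). Probe set 1427651_x_at lay just above the filter, at 10.7 ± 1.41 and 12.3 ± 1 (SD, n = 3 each). Its control mean is under the filter, so it passed only through the arrays labelled IRF2. In the limma test without the filter its log2 fold change was 0.21 (SE 0.11, adjusted p = 0.269). The remaining 3 named to H2-D1 alone were under the filter, at means between 5.97 and 9.17, and their groups overlapped. In the mean of all 9 probe sets named to it alone, which takes in these dim ones, H2-D1 came to 0.19.

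The probe sets that H2-K1 and H2-D1 share with each other or with relatives gave different values. Probe set 1424948_x_at, annotated to both genes, read 270, 277 and 270 in the GFP control cells and 454, 457 and 450 in the cells labelled IRF2 (log2 fold change 0.74, SE 0.03, adjusted p = 1.18e-09). That rise was closer to those of 1425336_x_at and 1427746_x_at of H2-K1 than to any rise of an H2-D1 probe set. Probe set 1451593_at, annotated to H2-K1 and H2-Q5, read 42.7 ± 2.36 and 43.8 ± 1.25 (SD, n = 3 each; 0.04, SE 0.07, adjusted p = 0.74). Probe set 1422348_at, annotated to H2-D1, H2-Q2 and Gm38417, was under the filter at 7.53 ± 0.513 and 7.66 ± 0.244 (SD, n = 3 each). Which alleles the cells carry, and which alleles each probe set was designed on, was not examined here.

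Of the nonclassical heavy chains, H2-M3 rose and H2-T23 was not called. H2-M3, which presents peptides that begin with N-formylmethionine, read 92.7, 92.0 and 87.3 in the GFP control cells and 145, 169 and 140 in the cells labelled IRF2 (log2 fold change 0.74, SE 0.06, adjusted p = 1.41e-06). Every array labelled IRF2 was above every control. H2-T23 encodes Qa-1, which presents leader peptides of other class I chains to receptors of natural killer cells, and both of its probe sets are cross-reading with H2-T-ps. The bright one, 1449556_at, read 317, 301 and 311 against 325, 342 and 313, with overlapping groups (0.08, SE 0.04, adjusted p = 0.155). The dim one, 1419658_at, was under the filter, at 6.44 ± 1.05 and 8.08 ± 0.335 (SD, n = 3 each). It had an adjusted p of 0.0612 in the test of all 45037 probe sets without the filter, where 7.49% were higher and 8.80% lower.

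Cd1d1, a class I-like chain that pairs with B2m and presents lipids to natural killer T cells, was dim but higher on both probe sets. Probe set 1449131_s_at read 24.1, 26.5 and 19.5 in the GFP control cells and 40.7, 42.2 and 33.3 in the cells labelled IRF2 (log2 fold change 0.73, SE 0.12, adjusted p = 0.000302). Probe set 1449130_at read 12.7, 10.9 and 9.96 against 17.9, 18.8 and 17.2. Its control mean of 11.2 is under the filter, so it passed only through the arrays labelled IRF2. In the test without the filter its log2 fold change was 0.69 (SE 0.10, adjusted p = 0.000227). Neither overlapped between the groups. The sizes depend on how low values are treated, since with 16 added before the log they came to 0.48 and 0.32.

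The tapasin pair moved in opposite directions. Tapbp encodes tapasin. Its probe set 1421812_at read 678, 676 and 638 in the GFP control cells and 583, 589 and 596 in the cells labelled IRF2, with every array labelled IRF2 below every control (log2 fold change -0.17, SE 0.03, adjusted p = 0.000608). The mean fell by 11.2%. Its other probe set, 1450378_at, read 174, 157 and 165 against 159, 151 and 154, with overlapping groups (-0.09, SE 0.05, adjusted p = 0.16). Tapbpl encodes TAPBPR, a tapasin-related peptide editor that works outside the TAP complex. Its probe set 1451544_at read 35.4, 39.2 and 38.5 against 58.9, 62.4 and 63.9, with no overlap (0.71, SE 0.07, adjusted p = 3.4e-06). With 16 added before the log its rise came to 0.53. The mean of both Tapbpl probe sets came to 0.48, since the other, 1424961_at, was near the tryptophan controls at 5.22 ± 0.332 and 6.23 ± 0.422 (SD, n = 3 each).

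The transactivator gene Nlrc5 was at the edge of what the array measured. Its only probe set, 1437176_at, read 5.94, 6.12 and 5.73 in the GFP control cells and 7.32, 7.35 and 7.25 in the cells labelled IRF2. The groups did not overlap, the control values lay inside the span of the tryptophan controls and the others lay just above it. It was under the filter. In the test without the filter its log2 fold change was 0.30 (SE 0.08, adjusted p = 0.0201), and 0.09 with 16 added before the log.

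**Figure D3:**
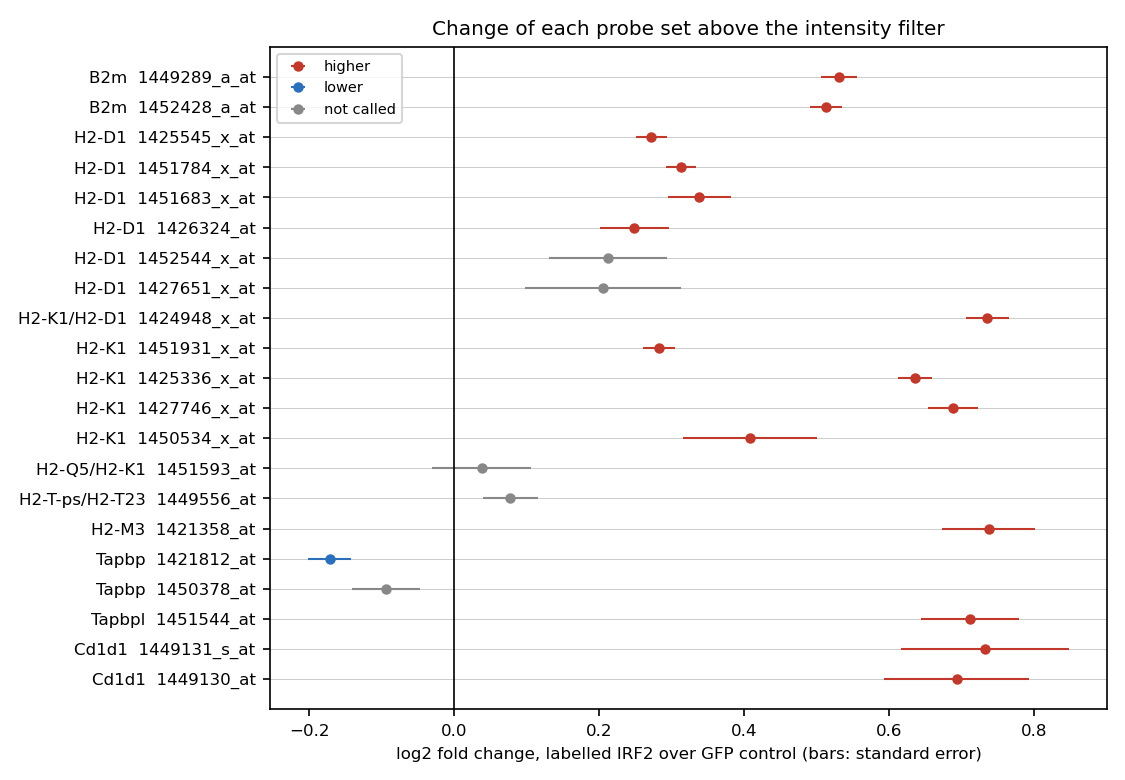
Log2 fold change (x axis, labelled IRF2 over GFP control) of the 21 tested probe sets, with points for the limma estimate and bars for its standard error; red marks higher, blue lower and grey not called. The probe sets named to H2-D1 alone lie between 0.21 and 0.34 and those named to H2-K1 alone between 0.28 and 0.69. The probe set named to both genes lies at 0.74, and both Tapbp probe sets lie below 0.

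Whether the partners changed by the same amount as the light chain was compared within arrays, using the brightest probe set of each gene. Against B2m, the log2 ratio fell by 0.22 for H2-D1, 0.25 for H2-K1 and 0.70 for Tapbp, and rose by 0.18 for Tapbpl. In each of these 4 the groups did not overlap, and the exact two-sided permutation p was 0.1, the smallest possible. For H2-M3 the ratio rose by 0.21 with overlapping groups (exact permutation p = 0.2). None passed 0.05, which 3 arrays against 3 cannot reach, and adjusted over the 16 within-array comparisons the values were 0.229 and 0.356. The H2-K1 ratio rests on the probe set of that gene with the smallest rise. Its probe set 1425336_x_at rose by 0.64, against 0.53 for B2m.

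**Figure D4:**
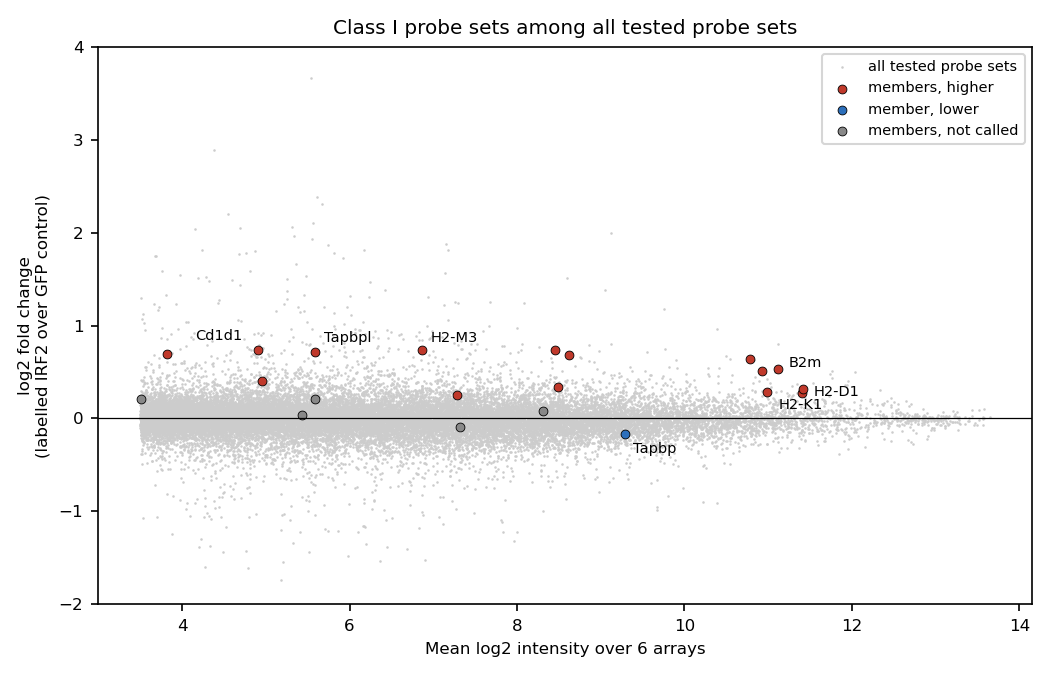
Log2 fold change (y axis, labelled IRF2 over GFP control) against the mean log2 intensity over 6 arrays (x axis) for the 27022 tested probe sets in grey, with the 21 members in colour. The labelled, brightest probe sets of B2m, H2-K1 and H2-D1 lie among the brightest of all, and 90% of all tested probe sets lie between -0.28 and 0.28.

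The probe sets whose values over the 6 arrays were most like those of B2m were the other B2m probe set and those of genes outside the lists used here for class I. By the Euclidean distance of centred log2 values to 1449289_a_at, over the other 23040 probe sets above the filter with 1 symbol, the 5 nearest were those of the keratin gene Krt8, the actin-binding caldesmon gene Cald1, Pdgfrl, B2m and Cpq. Their distances ran from 0.0535 to 0.0665, with 0.0622 for the other B2m probe set. Their log2 fold changes lay between 0.50 and 0.53, a likeness that follows from how they were picked.

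Most of the listed genes that cut, carry and trim peptides for class I rose. The endoplasmic reticulum chaperones Canx, Calr and Hspa5 had changes between -0.064 and 0.040 on the log2 scale, and Hspa5 was called lower. Each gene is given by its brightest probe set in a fit over 12795 genes, in which 16.5% were higher and 19.8% lower. Of 16 genes for peptide supply and loading, 14 had a probe set of their own. All 14 were tested, 8 were higher and 2 lower, with a median log2 fold change of 0.42, beside -0.0007 over all genes. The 8 were the immunoproteasome genes Psmb8, Psmb9 and Psmb10, the proteasome activator Psme1, the transporter genes Tap1 and Tap2, the trimming protease Erap1 and the oxidoreductase Pdia3 of the loading complex. Pdia3 was the smallest of them at 0.10 (SE 0.03, adjusted p = 0.0237). The count of 8 was 7 without the trend, under the stricter filter and without the replicate 1 or 2 array of either group, and 9 without the replicate 3 array labelled IRF2. The lectin chaperones Canx and Calr, which hold the unloaded heavy chain, differed by -0.01 (SE 0.03) and 0.04 (SE 0.03). Hspa5 and Sec61b were both lower by a change of -0.06 (SE 0.02 each), and leaving out the replicate 1 or 2 array labelled IRF2, or the replicate 1 or 3 GFP control array, changed this count of 2 to between 0 and 1.

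Other class I and class I-like genes were mixed. Of 30 in the list, 14 had a probe set of their own and 8 were tested, with 3 higher and 1 lower (2 without the replicate 2 GFP control array) and a median of 0.13. Hfe, a class I-like chain that pairs with B2m and regulates iron uptake, had the largest rise, from 12.0 ± 0.369 to 33.6 ± 2.39 (SD, n = 3 each; 1.48, SE 0.08, adjusted p = 3.15e-09). The natural killer cell ligand gene Ulbp1 rose by 0.33 (SE 0.08) and H2-Bl by 0.27 (SE 0.10, adjusted p = 0.0422). The count of 3 was 2 with no filter, with 16 added before the log, under quantile normalization and without any 1 array except the replicate 1 array labelled IRF2, and 1 under the stricter filter. Procr, the endothelial protein C receptor with a class I-like fold, fell by 0.28 (SE 0.03) from 634 ± 4.51 to 525 ± 25.7 (SD, n = 3 each). Among cross-reading probe sets without a member, that of H2-Q7 and H2-Q9 read 7.93, 9.82 and 8.38 against 19.1, 21.9 and 19. Its control values all lie under the filter, which it passed through the arrays labelled IRF2, so its test is not given. The one of H2-Q6 and H2-Q8 read 15.1, 12.2 and 14.8 against 31.1, 36.9 and 31.7 (1.25, SE 0.10). The bright one of H2-T9, H2-T10 and H2-T22 differed by -0.03 (SE 0.04, adjusted p = 0.637). The bright T region probe set of H2-T23 was not called either.

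Of 22 genes for regulators of class I promoters, 17 were tested, 5 were higher and 2 lower, with a median of 0.03. Rfx5, a subunit of the RFX complex that binds the X1 box of the SXY module, rose by 0.44 (SE 0.08, adjusted p = 0.000301), and its partner Rfxap was lower by a change of -0.12 (SE 0.04, adjusted p = 0.0426). The count of 2 lower genes became 1 without the replicate 1 or 3 GFP control array or any 1 array labelled IRF2. The third subunit, Rfxank, differed by -0.02 (SE 0.06). The other lower gene was Irf2, at -0.79 (SE 0.06, adjusted p = 1.73e-07). Irf9, Stat2, Nfya and Usf2 were the other genes that rose, at 0.47, 0.34, 0.24 and 0.16. Irf1 differed by 0.08 (SE 0.05, adjusted p = 0.205). The NF-kappaB subunit genes Rela and Relb differed by 0.01 and 0.04, without passing the test. Of 6 MHC class II genes, 5 had a probe set of their own, 3 were tested and H2-DMa, a peptide editor for class II, was called. It rose from 15.0 ± 1.85 to 25.9 ± 2.28 (SD, n = 3 each; 0.79, SE 0.10), while the class II chains H2-Aa and H2-Ab1 lay under the filter.

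**Figure D5:**
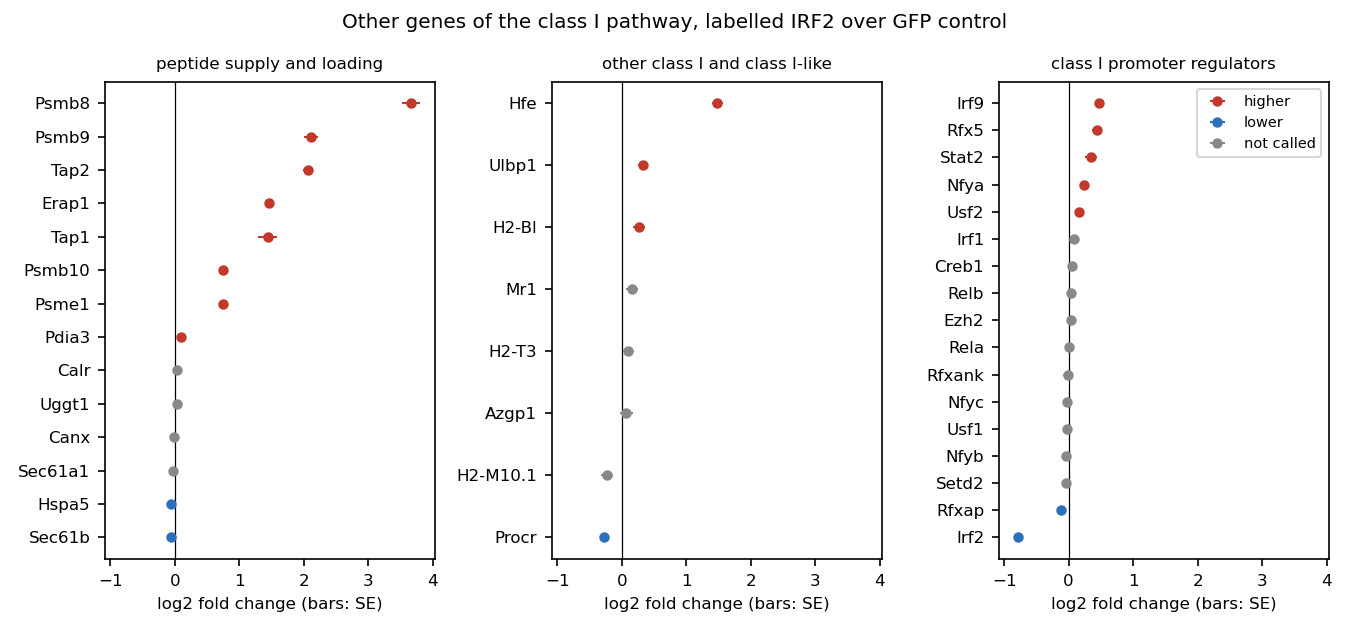
Log2 fold change (x axis, labelled IRF2 over GFP control) of the tested genes of 3 lists, with points for the limma estimate and bars for its standard error; red marks higher, blue lower and grey not called. Of 14 supply and loading genes 8 are higher and 2 lower, of 8 other class I genes 3 and 1, and of 17 regulators 5 and 2.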

How the data were processed

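Biotin-labelled total RNA of 6 mouse cell samples was measured on Affymetrix arrays. Values were deposited as linear intensities, 1 per probe set and array; per the labels, the processing tools include MAS5, without its role, and no scaling step is given. Intensities of 45101 probe sets ran from 2.59 to 14181. Gene names came from the platform annotation at GEO; outside the controls, 34945 probe sets had 1 symbol, 932 several and 9160 none. The gene number of 34741 was found in the RefSeq table, which gave current symbols. Detection calls were not used here.

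Differences were tested on log2 intensities by limma 3.58.1 (R 4.3.3; lmFit, then eBayes with trend), with the group alone in the model and 4 residual degrees of freedom, two-sided, with Benjamini-Hochberg adjustment over all probe sets whose mean log2 value lay above the 40th percentile, and a threshold of 0.05. Gene lists used the brightest probe set with 1 symbol per gene. The fit was tested on simulated data. Same-numbered arrays did not deviate together (correlations of deviations 0.063, -0.056 and 0.003), so the numbers were not used as pairs. The members and lists were chosen with earlier results of these data known. Named were all member probe sets, genes of these lists and the 5 probe sets most like B2m. Alternatives covered the filter, an added constant of 16, quantile and median scaling, the trend, robust variance, a replicate block, probe set summaries and each array left out.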

Additional observations from a re-analysis of the deposited data

How the results depend on the processing

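All alternatives listed at the outset were run. The counts of 15 members higher and 1 lower ranged from 12 to 16 higher, with 1 lower in each, over 14 alternatives of the fit; the 12 came from the stricter filter, which tests fewer probe sets. Without cross-reading probe sets they were 14 and 1. Of 304 values of single member probe sets under an alternative, 301 kept direction and side of the threshold. H2-D1 1452544_x_at passed with the replicate block (0.21, adjusted p = 0.0377) and without the replicate 2 GFP control array. H2-Q5/H2-K1 1451593_at turned to -0.0068 without the replicate 3 GFP control array (up to 0.0712 without another). The replicate block changed no other member call and gave 16 members higher, although the numbers do not pair the arrays.

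Some within-array differences changed sign. That of the dim H2-K1 1450534_x_at against the brightest H2-K1 probe set went from 0.126 to -0.0125 with 16 added before the log. When 1 array was left out, those of the B2m pair (-0.032 to 0.0034), H2-D1 1451683_x_at (-0.0188 to 0.0742) and the Cd1d1 pair (-0.1519 to 0.0278) did so. The cause was not tested. Small counts in lists also moved. Of the regulators, 1 was lower in place of 2 with no filter, under quantile normalization, without the trend and in the mean of probe sets, and 1 to 2 with an array left out. Of the supply and loading genes, 0 were lower without the trend, 1 in the mean of probe sets and 0 to 2 with an array left out. Of the other class I genes, 1 was higher under the stricter filter, and 2 were lower without the trend, 2 in the mean of probe sets and 1 to 2 with an array left out. Without the trend, intestinal epithelium markers called higher went from 2 to 1. Immune cell markers called higher and endothelium markers called lower each went from 1 to 0 in that fit. Intensities near the tryptophan controls, as for Nlrc5, limit what can be read from their folds.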
